A study of Rattus norvegicus and Ovis aries with 113 samples.

Results

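Potassium channel genes were taken as every gene whose symbol, in capitals, starts with KCN. The rule found 95 of the 31304 genes in the sheep table and 95 of the 38675 genes in the rat table, and 94 symbols stood in both. KCNK17 was in the sheep table only and Kcnd2l1 in the rat table only. By symbol, the sheep members comprised 40 voltage-gated pore subunits, 15 inward rectifiers, 15 two-pore-domain channels, 8 calcium- or sodium-activated channels and 17 accessory or regulatory subunits. The rat members comprised 41, 15, 14, 8 and 17 in the same order.

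The libraries came from RNA sequencing of untreated animals. Samples of 10 brain regions and sperm were taken from 5 post-pubertal rams, numbered 687, 688, 690, 694 and 699, which gave 50 brain libraries and 5 sperm libraries. Whole brain and seminal fluid were taken from 15 post-pubertal male Sprague Dawley rats, and whole brain and ovary from 14 females of that strain. The brain controls are thus dissected regions in sheep and whole brain in rat. Levels are counts scaled to a common library size (CPM), taken over a library's total without its ribosomal RNA entries in rat, or without 4 very abundant unnamed entries in sheep. A level is not adjusted for gene length, so levels are compared between samples and never between genes. Values of the 5 sheep always follow the order of numbers above, and errors are SD over libraries. A rise or fall is a log2 fold change with its standard error (SE) unless a level is named.

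Potassium channels let potassium leave or enter cells down its gradient, which sets the resting potential and ends the action potential. Voltage-gated subunits open on depolarization, inward rectifiers and two-pore-domain channels carry current near rest, and calcium- or sodium-activated channels answer internal ions. Accessory subunits change the gating or traffic of the pore. In sperm, KCNU1 encodes the pore of SLO3, a pH-sensitive channel of the germ line that works with the accessory protein LRRC52.

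Library totals ran from 46697655 to 72403425 counts in sheep brain, 13698889 to 65146176 in sheep sperm, 38164144 to 119206015 in rat brain, 50485490 to 60265909 in ovary and 13714087 to 65107730 in rat sperm. The 4 sheep entries held 22.4% to 85.2% of the counts in sheep sperm and 3.89% to 14.6% in sheep brain. In 1 female and 1 male rat brain library, numbers 1 and 4, the ribosomal entries held 86.9% and 83.1%. Rat sperm libraries 7, 16 and 17 held few low counts: 1 to 5 counts were recorded for 2.56%, 2.73% and 2.74% of their genes above 0, against 11.5% to 23.1% in the other 12. The libraries labelled sperm also carried RNA typical of other cells. In sheep sperm, 5 neutrophil markers summed to 10655, 51461, 39127, 23921 and 41981 CPM (brain 0.326 to 8.05 CPM) and 10 late spermatid markers to 6079.8, 77.1, 1352, 649.8 and 6135 CPM. In rat sperm, 5 epididymal markers summed to 235 to 3386 CPM and the spermatid markers to 217 to 26088 CPM, against 6.57 to 13.6 CPM and 14.5 to 28.8 CPM in male brain.

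Promoter sequences are shown for 4 rat members that were higher in sperm or ovary than in brain, 2 inward rectifiers, 1 two-pore-domain channel and 1 accessory subunit. Each is the 250 bases before a RefSeq start site in GRCr8, 5′ to 3′ on the gene's strand. Capitals mark a CCAAT box or a GC box (GGGCGG), searched on both strands. Kcnj15 lies at chr11:48070700-48070949 on the plus strand (a start within the gene's span), Kcnk5 at chr15:4171375-4171624 on the plus strand, Kcne3 at chr1:163935785-163936034 on the plus strand and Kcnj8 at chr4:177246549-177246798 on the minus strand.
Kcnj15: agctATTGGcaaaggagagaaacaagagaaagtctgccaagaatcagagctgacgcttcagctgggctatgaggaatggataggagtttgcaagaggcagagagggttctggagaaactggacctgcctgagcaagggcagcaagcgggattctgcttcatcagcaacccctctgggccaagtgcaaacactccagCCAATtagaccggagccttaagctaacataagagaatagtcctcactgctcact
Kcnk5: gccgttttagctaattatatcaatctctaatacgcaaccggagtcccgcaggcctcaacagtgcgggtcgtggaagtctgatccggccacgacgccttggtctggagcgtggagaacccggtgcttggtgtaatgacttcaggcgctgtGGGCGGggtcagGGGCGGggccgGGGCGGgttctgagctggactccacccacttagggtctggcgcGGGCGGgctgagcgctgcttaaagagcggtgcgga
Kcne3: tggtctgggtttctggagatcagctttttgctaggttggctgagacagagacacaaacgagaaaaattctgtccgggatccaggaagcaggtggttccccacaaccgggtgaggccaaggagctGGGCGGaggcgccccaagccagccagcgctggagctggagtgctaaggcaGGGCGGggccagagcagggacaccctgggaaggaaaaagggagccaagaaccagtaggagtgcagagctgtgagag
Kcnj8: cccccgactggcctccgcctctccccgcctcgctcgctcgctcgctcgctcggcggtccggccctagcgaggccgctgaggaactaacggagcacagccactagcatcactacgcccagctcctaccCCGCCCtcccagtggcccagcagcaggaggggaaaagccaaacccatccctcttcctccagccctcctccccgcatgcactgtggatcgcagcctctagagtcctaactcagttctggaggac

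Kcnj15 carried 2 CCAAT boxes and no GC box, whereas Kcnk5 carried 4 GC boxes, Kcne3 carried 2 and Kcnj8 carried 1. Promoter windows were found for 64 of the 95 rat members, 70 windows in all. A GC box stood in 48.6% of the member windows and in 30.5% of all 33469 windows of this length. A CCAAT box stood in 24.3% and 34.0%, and the letters TATAAA in 2.86% (Kcnj1 and Kcnj13) and 12.9%. The median share of G and C was 59.6% in the member windows and 51.2% in all windows. These are letter matches, and neither they nor the part of base content was tested.

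Across the sheep brain, calls of potassium channel genes were most frequent in the cerebellum, the pons and the basal ganglia. Of all genes, 28.8%, 18.7% and 10.3% were called there, also the largest shares among the regions. For each region the contrast was with the average of the other 9 on the log2 scale. A region far below the rest lowers that average, so a rise elsewhere can exceed the ratio of mean levels. Among such regions were the pons for KCNH3, the cerebellum for KCNG1, KCNG3 and KCNC2, and the basal ganglia for KCNJ6 and KCNK9. Calls required an edgeR p below 0.05 after Benjamini-Hochberg adjustment over all genes tested, and a change of 1 or more in either direction on the log2 scale. The low-count filter left 85 of the 95 members. KCNA7, KCNA10, KCNE2, KCNJ1, KCNJ15, KCNK15, KCNK16, KCNK18, KCNS1 and KCNU1 did not pass it. Of the 85, 76 were called in at least 1 region and 39 were called higher in one region and lower in another. The mean level was highest in cerebellum for 28 members and lowest there for 30. The same counts were not made over all genes, so they are not read as a trait of the members. KCNA5, KCNA6, KCND1, KCNJ8, KCNJ13, KCNJ14, KCNK6, KCNK7 and KCNRG were called in no region.

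**Figure D1:**
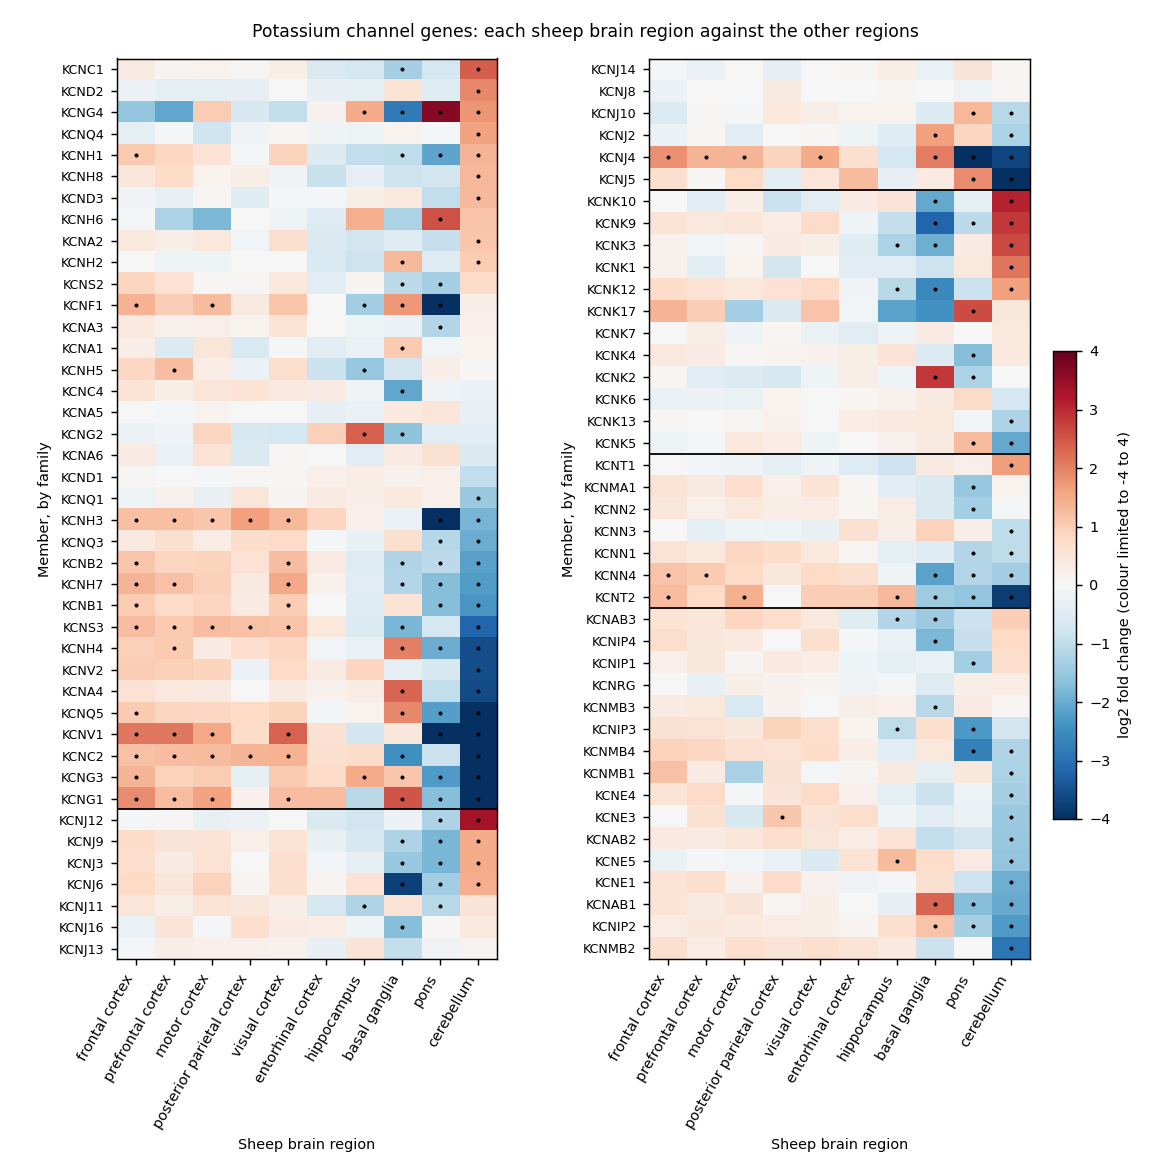
Fitted log2 fold change of the tested members, 2 of the 85 not drawn (rows, grouped by family) in each sheep brain region against the mean of the other 9 (columns); dots mark called values and colours stop at 4 and -4. Dots are most frequent in the cerebellum, pons and basal ganglia columns, and the entorhinal cortex column has 0.

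In the cerebellum, 20 members were higher and 35 were lower. Of all genes tested 28.8% were called there, 9.35% higher and 19.5% lower. Two-pore-domain members were called higher 5 times and lower 2 times of 12 tested, whereas accessory members were called higher 0 times and lower 10 times of 16. The median log2 fold change was -0.24 over the members and -0.04 over all genes. All 35 lower members were lower in all 5 sheep, and 19 of the 20 higher members were higher in all 5. In bulk tissue, fewer cells of a type and less RNA per cell cannot be told apart.

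KCNJ12 (Kir2.2), a strong inward rectifier, read 99.1, 85.0, 86.4, 119.8 and 91.1 CPM in the cerebellum. The brain libraries of the other 9 regions read 1.07 to 13.1 CPM, so the groups did not overlap. Its log2 fold change was 3.33 (SE 0.14), adjusted p = 1.30e-24. Among the two-pore-domain background channels, KCNK9 (TASK-3) read 98.3, 87.7, 110.0, 109 and 99.1 CPM against 0.892 to 34.4 CPM elsewhere, a log2 fold change of 2.82 (SE 0.21). KCNK10 (TREK-2) averaged 34.0 ± 6.15 CPM against 4.00 ± 2.56 CPM and rose by 3.07 (SE 0.19). Neither of these channels overlapped with the rest of the brain.

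Several further members are singled out here after their values were seen. KCNC1, a Kv3 subunit that allows fast repetitive firing, read 248, 189.8, 206, 268 and 207 CPM in the cerebellum against 6.41 to 77.5 CPM elsewhere and rose by 2.42 (SE 0.17). Its paralog KCNC2 went the other way, at 3.94, 7.65, 5.72, 2.60 and 2.09 CPM against 107 ± 51.2 CPM, a log2 fold change of -4.50 (SE 0.35). These Kv3 genes thus went opposite ways. The G-protein-gated subunits KCNJ3, KCNJ6 and KCNJ9 were all higher, with log2 fold changes of 1.48 (SE 0.22), 1.45 (SE 0.20) and 1.49 (SE 0.18). KCND2, a Kv4 subunit of A-type current, rose by 1.94 (SE 0.15), while KCNIP2, an accessory subunit that binds Kv4 channels, fell by 2.28 (SE 0.17). KCNT1, a sodium-activated channel, rose by 1.68 (SE 0.16) and KCNK1 (TWIK-1) by 2.15 (SE 0.21).

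The deepest fall in the cerebellum was that of KCNG1, an electrically silent subunit that modifies Kv2 channels. It read 0.149, 0.276, 0.164, 0.175 and 0.115 CPM there and averaged 26.0 ± 21.4 CPM elsewhere, without overlap, a log2 fold change of -7.02 (SE 0.75). KCNG3, of the same silent family, read 0.465, 0.0919, 0.2, 0.311 and 0.172 CPM and fell by 5.07 (SE 0.66). The BK channel subunits did not move together: KCNMB2 and KCNMB4 fell to 0.613 ± 0.174 and 27.0 ± 5.28 CPM, whereas the pore gene KCNMA1 averaged 148 ± 29.9 CPM and was not called. KCNMB1 was called lower at -1.28 (SE 0.57), edgeR adjusted p = 0.0494. This call was lost with the animal as a block (-1.09), with no low-count filter and when any single sheep was left out. Purkinje and granule cell markers (6 genes) summed to 2986 to 3559 CPM in the cerebellum and to at most 147 CPM in any other brain library. Their part in these differences was not tested.

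In the pons, 6 members were higher and 34 lower, against 18.7% of all genes called (9.66% higher and 9.02% lower). The median log2 fold change was -0.84 over the members and 0.03 over all genes. Of the higher members 4 were higher in all 5 sheep, and all 34 lower members were lower in all 5. Calls were lower for 15 of 37 voltage-gated, 6 of 13 inward rectifier, 3 of 12 two-pore-domain, 5 of 7 calcium- or sodium-activated and 5 of 16 accessory members.

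KCNG4, another silent Kv2 modifier, read 13.0, 10.4, 20.2, 12.6 and 10.0 CPM in the pons against 1.77 ± 2.89 CPM elsewhere and rose by 3.63 (SE 0.43). KCNJ10 (Kir4.1), the astrocyte and oligodendrocyte inward rectifier, read 185, 290.2, 117, 144 and 256 CPM against 83.7 ± 36.8 CPM, a log2 fold change of 1.33 (SE 0.23). Oligodendrocyte markers (6 genes) summed to 23719.8 to 99235 CPM in the pons and astrocyte markers (6 genes) to 15915 to 22771 CPM, against at most 32538 and 15182 CPM elsewhere. The astrocyte sums in the pons lay above those of all other brain libraries, and the oligodendrocyte sums overlapped with theirs. The part of either in the rise of KCNJ10 was not tested. KCNK5 (TASK-2) read 6.39, 4.89, 5.17, 3.48 and 11.9 CPM and rose by 1.26 (SE 0.20), but without sheep 699 its log2 fold change was 0.93 and it was not called. The other higher members, KCNJ5, KCNH6 and KCNK17, averaged under 1 CPM.

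Among the lower members, KCNH3 (a Kv12 subunit) read 0.605, 0.837, 0.993, 4.83 and 0.748 CPM in the pons against 74.2 ± 35.1 CPM, a log2 fold change of -5.42 (SE 0.35). KCNF1, a silent subunit, read 0.194, 0.152, 0.881, 2.11 and 0.575 CPM and fell by 5.64 (SE 0.63). Both lay below every library of the other regions. KCNMB4, the neuronal BK subunit, read 5.33, 8.46, 12.1, 13.1 and 7.98 CPM against 23.7 to 113 CPM. KCNMA1 fell as well, to 47.7 ± 18.2 CPM. Neuron markers (5 genes) summed to 3396, 2320.3, 4731, 1840.4 and 553 CPM in the pons, lowest in sheep 699, and to 1391 to 5380.4 CPM in the other regions, so that only sheep 699 lay below them. Their part in the lower levels was not tested.

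In the basal ganglia, 13 members were higher and 24 lower, where 10.3% of all genes were called (5.54% higher and 4.75% lower). Of these, 11 of the 13 and all 24 held in every sheep. KCNK2 (TREK-1), a mechanically gated background channel, read 50.8, 56.4, 44.0, 105 and 73.8 CPM against 1.94 to 28.2 CPM elsewhere and rose by 2.84 (SE 0.26), adjusted p = 2.25e-12. KCNA4 (Kv1.4), an A-type subunit, read 48.1, 45.7, 34.8, 46.4 and 48.8 CPM and rose by 2.33 (SE 0.21). KCNG1 read 52.4, 32.2, 29.7, 62.0 and 82.6 CPM and rose by 2.51 (SE 0.34), a value raised by its low cerebellum level in the log2 average. KCNK2 and KCNA4 did not overlap with any other region.

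KCNAB1, a cytoplasmic Kv1 beta subunit chosen after its values were seen, read 216, 206, 154, 277 and 246 CPM against 6.75 to 125 CPM and rose by 2.31 (SE 0.17). KCNJ2 and KCNJ4, classical Kir2 inward rectifiers named in the same way, rose by 1.65 (SE 0.12) and 2.04 (SE 0.29). KCNH4 and KCNQ5, a Kv12 and an M-current subunit also named after their values were seen, rose by 2.02 (SE 0.19) and 1.94 (SE 0.22). By contrast KCNJ6 (GIRK2) read 2.90, 4.15, 6.86, 2.55 and 2.31 CPM against 65.3 ± 32.2 CPM and fell by 3.75 (SE 0.32), below every other library. KCNK9 read 0.892, 2.75, 2.22, 1.96 and 1.51 CPM and fell by 3.16 (SE 0.36). The inward rectifiers therefore went both ways in this region. KCNJ16, a partner of KCNJ10, averaged 5.81 ± 2.29 CPM and was called lower. Striatal projection neuron markers (5 genes) summed to 1522 to 3913 CPM in the basal ganglia and to at most 417 CPM elsewhere, and their part was not tested.

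Between cerebellum and basal ganglia, 11 members were higher in the former and lower in the latter, 9 showed the opposite pair of calls, 1 was higher in both and 6 were lower in both. Between cerebellum and pons, 17 were lower in both, 1 was higher in both, 6 were higher in cerebellum and lower in pons, and 3 showed the reverse. These counts come from 1 fit in which each region also serves in the mean of the others, so they are not independent, and the same pairs were not counted over all genes.

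**Figure D2:**
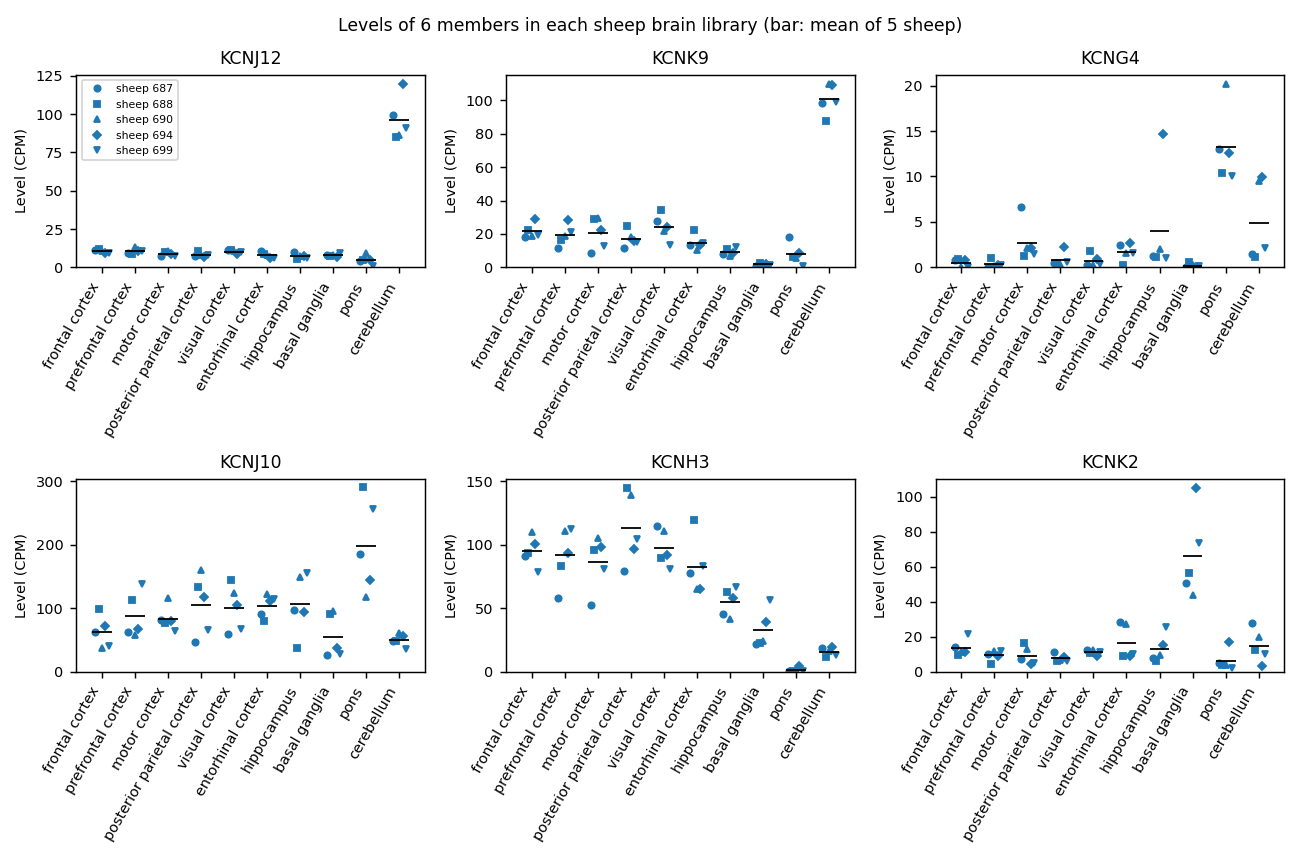
Level in CPM (vertical axes, linear) of 6 members in each of the 50 sheep brain libraries by region; marker shapes stand for the 5 sheep and bars for their mean. KCNJ12 and KCNK9 are highest in cerebellum, KCNG4 and KCNJ10 in pons and KCNK2 in basal ganglia, and KCNH3 is lowest in pons.

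In the cortical regions all called members were higher: 15 in frontal, 10 in prefrontal, 9 in visual, 8 in motor and 4 in posterior parietal cortex. Of all genes, 2.77%, 2.46%, 2.12%, 1.64% and 2.66% were called there in either direction, and 2.36%, 1.75%, 1.87%, 1.51% and 2.20% were called higher. The call held in all 5 sheep for 11 of 15 members in frontal, 4 of 10 in prefrontal, 6 of 9 in visual, 1 of 8 in motor and 3 of 4 in posterior parietal cortex. KCNV1, a silent subunit that modifies Kv2 channels, read 86.4, 98.5, 41.8, 39.4 and 17.7 CPM in visual and 56.8, 73.1, 39.2, 50.8 and 24.5 CPM in frontal cortex, with log2 fold changes of 2.36 (SE 0.34) and 2.10 (SE 0.34). In prefrontal and motor cortex it rose by 2.10 (SE 0.34) and 1.55 (SE 0.36), the latter lost without sheep 690 or 694. The sheep differed widely within visual and motor cortex, and sheep 687 read 5.51 CPM in motor cortex.

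KCNJ4 (Kir2.3) read 82.7, 66.6, 77.1, 71.7 and 49.9 CPM in frontal cortex and rose by 1.83 (SE 0.30), and it also rose in visual cortex by 1.49 (SE 0.31) and in prefrontal cortex by 1.36 (SE 0.31). The prefrontal call was lost without sheep 690. KCNG1 rose by 1.88 (SE 0.36) in frontal cortex. In motor cortex KCNG1 read 24.8, 80.0, 34.2, 16.5 and 17.5 CPM, and its rise of 1.60 (SE 0.37) was lost without sheep 688, at 1.01 (adjusted p = 0.191). Sheep 688 was the highest there by a wide margin. In prefrontal cortex the KCNG1 call of 1.24 (SE 0.38) was lost without any one of sheep 690, 694 and 699.

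KCNH3 read 79.5, 145, 139, 96.2 and 104 CPM in posterior parietal cortex against 61.9 ± 37.9 CPM and rose by 1.64 (SE 0.19). The ratio of mean levels was smaller, since the low pons level lowers the log2 average of the other regions. KCNC2 (Kv3.2) averaged 137 ± 20.1 CPM there and rose by 1.35 (SE 0.22). KCNS3, a silent subunit, read 6.09, 12.0, 7.41, 7.11 and 6.01 CPM and rose by 1.17 (SE 0.26). KCNC2, KCNH3 and KCNS3 were each called higher in all 5 of these cortical regions. The KCNS3 call was lost in prefrontal cortex without sheep 688, 690 or 699 and in motor cortex without sheep 694. KCNH7, an Erg-type subunit, read 78.6, 103, 55.4, 43.0 and 18.9 CPM in visual cortex and rose by 1.53 (SE 0.28), and KCNT2, a sodium-activated channel, read 33.4, 19.7, 12.0, 8.01 and 3.85 CPM in motor cortex and rose by 1.44 (SE 0.27).

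In the hippocampus, 5 members were higher and 7 lower, where 4.62% of all genes were called (3.46% higher and 1.15% lower). All 7 lower members were lower in every sheep, but only 1 of the 5 higher members was higher in every sheep. KCNG2 read 37.5, 33.2, 28.8, 28.7 and 2.66 CPM against 5.28 ± 6.53 CPM, with sheep 699 far below the others, and its log2 fold change was 2.38 (SE 0.34). KCNG4 read 1.25, 1.11, 2.05, 14.6 and 0.979 CPM, and its call at 1.50 (SE 0.50), adjusted p = 0.0447, rested on sheep 694: without it the value was 0.11, adjusted p = 0.943. With the animal as a block it was 1.11 and not called. KCNG3 read 25.6, 5.05, 28.4, 12.5 and 2.14 CPM and rose by 1.50 (SE 0.37), which was lost without sheep 687 or 690. Among the lower members, KCNH5 read 2.04, 1.23, 2.28, 2.84 and 4.14 CPM and fell by 1.51 (SE 0.38). KCNF1 read 20.3, 12.6, 12.1, 4.87 and 8.11 CPM and fell by 1.40 (SE 0.45), lost without sheep 690, 694 or 699.

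No member was called in the entorhinal cortex, where 2.24% of all genes were called (2.23% higher and 0.0142% lower). With edgeR 18 members had an unadjusted p below 0.05 and 4 an adjusted p below 0.05, and DESeq2 called 0 with 21 at an unadjusted p below 0.05. The choroid plexus inward rectifier KCNJ13 was called in no region, and single libraries stood out. It read 2.17, 3.98, 2.64, 19.8 and 2.05 CPM in hippocampus and 1.75, 1.39, 3.67, 12.3 and 0.499 CPM in pons. The choroid plexus markers found in the table (4 of 5) summed to 115, 187, 209, 1744 and 70.3 CPM and 42.4, 43.9, 289, 1391 and 15.1 CPM in the same libraries. KCNJ13 and these sums were highest in sheep 694 in both regions, and the part of choroid plexus tissue was not tested.

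Several members fixed by name were followed through all 10 regions. KCNJ10 averaged 198 ± 73.3 CPM in pons, 107 ± 47.8 in hippocampus, 105 ± 47.7 in posterior parietal, 104 ± 18.0 in entorhinal, 99.9 ± 36.4 in visual, 87.5 ± 36.1 in prefrontal, 83.6 ± 19.2 in motor and 62.1 ± 25.1 in frontal cortex, 55.3 ± 34.9 in basal ganglia and 49.9 ± 9.70 in cerebellum. The pons stood above the next region by more than either SD, and each later pair of neighbours in this order differed by less than the larger of their SDs. KCNMA1 had its highest means in motor (184 ± 49.0 CPM) and frontal cortex (174 ± 19.7 CPM) and its lowest in basal ganglia (73.4 ± 6.82 CPM) and pons. Its subunit KCNMB4 averaged 91.0 ± 14.5 CPM in frontal cortex, its highest region, and was lowest in pons. Traces of KCNU1 were read in hippocampus, at 0.206, 0.189, 0.0719, 0.125 and 0.0185 CPM (11, 8, 4, 8 and 1 counts), and it had 0 counts in frontal, prefrontal, posterior parietal and visual cortex and in pons. With no low-count filter KCNU1 was called higher in hippocampus (4.39, edgeR adjusted p = 1.44e-05), entorhinal cortex (2.65) and basal ganglia (1.99), on 1 to 11 counts a library in hippocampus, while DESeq2 gave no adjusted p in hippocampus and entorhinal cortex and no call in basal ganglia.

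Genes outside the KCN symbols that work with these channels (17, among them auxiliary and clustering genes) were counted for comparison, and 15 were tested across regions. In cerebellum 3 were higher and 2 lower, in pons 1 higher and 2 lower, in basal ganglia 0 higher and 4 lower, and 0 were called in the other 7 regions. CNTNAP2 and ADAM22, which help cluster Kv1 channels on axons, rose in cerebellum by 1.24 and 1.56.

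In sheep sperm most potassium channel genes were lower than in brain, and a few were far higher. Of 88 members tested, 9 were higher and 66 lower, against 74.2% of all genes called (33.1% higher and 41.1% lower). The median log2 fold change was -3.52 over the members and -0.42 over all genes, and -3.46 with the 8 tested members at 0 counts set to their bound (a ratio of CPM). All 66 lower members were lower in all 5 sheep, but 4 of the 9 higher members were higher in all 5. Here as elsewhere, directions in single sheep or pairs were read on CPM levels, whereas calls are TMM-scaled. The scale mattered here: TMM factors were 0.114 to 0.305 in sperm, and with a ratio of mean CPM the median of all genes lay 1.19 lower. With RLE factors it lay 0.248 higher. With DESeq2 it lay 1.47 higher, but that median covers genes with no low-count filter, so gene set and scale are mixed in it. Log2 fold changes below are TMM-scaled. Levels, and lower bounds on folds against 0 counts, are on the CPM scale of the opening.

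KCNU1, the SLO3 pore, read 22.8, 0.21, 2.48, 12.6 and 6.87 CPM in sperm (220, 8, 16, 147 and 79 counts), and no brain library exceeded 0.206 CPM. Its log2 fold change was 10.96 (SE 0.43), adjusted p = 1.06e-20. All sperm libraries lay above all brain libraries, but sheep 688 only just did. Without sheep 687, KCNU1 did not pass the low-count filter. The spermatid marker sum was lowest in sheep 688 too, at 77.1 CPM. The level of LRRC52 was 0.518, 0, 0, 0.0854 and 0.261 CPM, and it was not tested.

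KCNJ15 (Kir4.2), an inward rectifier of epithelia, read 10.0, 113, 28.7, 55.5 and 17.7 CPM against at most 0.225 CPM in brain, and rose by 11.24 (SE 0.30). KCNK6 (TWIK-2) read 20.6, 25.0, 26.4, 36.9 and 61.2 CPM against 1.04 to 5.02 CPM and rose by 4.83 (SE 0.15). Neither overlapped with brain. Unlike KCNU1, KCNJ15 was highest in sheep 688, the library with the highest neutrophil and squamous epithelium sums (51461 and 27145 CPM). KCNK6 was highest in sheep 699, and the part of these cells was not tested. KCNE2, a small accessory subunit, read 6.94, 0.0524, 0.775, 2.99 and 1.30 CPM and rose by 6.18 (SE 0.44). KCNK7, a two-pore-domain gene, read 0.414, 6.69, 6.20, 1.97 and 3.83 CPM and rose by 4.94 (SE 0.25). KCNE2 followed KCNU1 in being lowest in sheep 688 and highest in sheep 687, while KCNK7 was lowest in sheep 687.

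The remaining 4 higher members are named after their values were seen. KCNRG, a regulator of Kv assembly, read 3.93, 0.105, 2.17, 1.28 and 6.96 CPM and rose by 3.13 (SE 0.25). KCNV2 rested on sheep 694 alone, with 22 counts there and 0 in the other 4, and without that sheep its log2 fold change of 1.73 (SE 0.53) turned to -6.17. KCNJ2 read 6.31, 5.61, 4.96, 50.8 and 0.609 CPM, and its 1.06 (SE 0.27) became -0.06 without sheep 694. It was not called with the animal as a block, and its ratio of mean CPM was -0.02 on the log2 scale. KCNH6 had 2 counts in sheep 690, 6 in sheep 699 and 0 elsewhere. No direction is drawn from KCNV2, KCNJ2 or KCNH6.

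**Figure D3:**
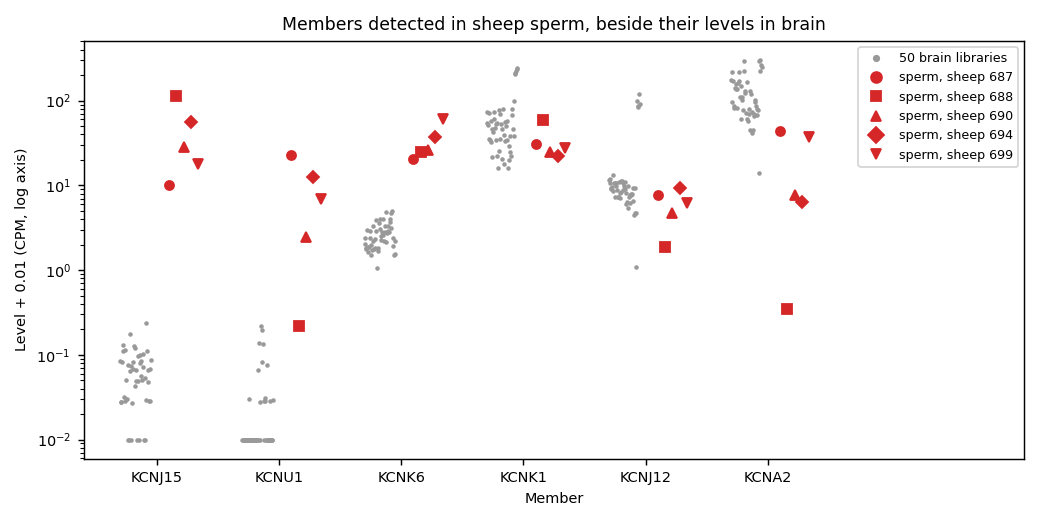
Level in CPM plus 0.01 (log axis) of 6 of the 7 members detected in sheep sperm; grey points are the 50 brain libraries and red symbols the 5 sperm libraries. KCNJ15, KCNU1 and KCNK6 lie above all brain libraries, and sheep 688 is lowest for KCNU1, KCNA2 and KCNJ12.

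A member counted as detected in a tissue at 1 CPM of the plain total in at least 80% of its libraries. By this measure 7 members (7.37%) were detected in sheep sperm and 72 (75.8%) in sheep brain, against 23.3% and 46.9% of all genes. The sperm count depended on the totals used, and it was 18 with totals that left out the 4 abundant entries and 25 with TMM-adjusted totals. Besides KCNU1, KCNJ15 and KCNK6 they included KCNK1, KCNJ12 and KCNA2. KCNK1 read 30.4, 59.1, 24.6, 22.0 and 27.5 CPM and was not called at 0.73 (SE 0.27); its ratio of mean CPM was negative, -0.96. KCNA2 (Kv1.2) read 44.0, 0.341, 7.60, 6.41 and 36.8 CPM and was lower than in brain at -1.82 (SE 0.43). KCNJ12 read 7.76, 1.89, 4.65, 9.40 and 6.26 CPM and was not called. KCNA2 and KCNJ12 shared their lowest library, sheep 688, with KCNU1. KCNQ1, named after its values were seen, read 1.66, 0.184, 0, 0 and 0.348 CPM and fell by 1.69 (SE 0.40).

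At the other end, KCNIP3, a calcium-binding Kv4 subunit, had 0 counts in sperm and averaged 68.6 ± 34.2 CPM in brain, at least 1770-fold lower as a ratio of CPM with no TMM factor, against a floor of 3 counts over the group. KCNIP4, KCNV1, KCNJ11 and KCNS2 also had 0 counts and were at least 791-, 657-, 461- and 432-fold lower. KCNMA1, the BK pore, read 0, 0.603, 1.55, 17.4 and 0.348 CPM against 129.7 ± 52.5 CPM and fell by 4.05 (SE 0.49). Its accessory genes KCNMB1, KCNMB2 and KCNMB4 were called lower, and KCNMB3 averaged 0.211 ± 0.252 CPM in sperm and was not called. LRRC26, a BK gamma subunit of secretory epithelia outside the KCN symbols, was the only 1 of 16 tested partner genes that was higher, at 106 ± 75.0 CPM against 0.0728 CPM in brain. The other 15 were lower.

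In rat sperm, 11 of 86 tested members were higher and 65 lower than in male brain, where 59.1% of all genes were called (27.7% higher and 31.5% lower). The median log2 fold change was -4.61 over the members and -0.03 over all genes. Of the 65 lower members 60 were lower in 15 of 15 same-numbered pairs, and 2 of the 11 higher members were higher in 15 of 15. Without libraries 7, 16 and 17 the same 76 members were called. Kcnj15 rose most, with a lowest level of 103, a median of 392 and a highest of 703 CPM against 0.174 to 0.947 CPM in brain and a log2 rise of 9.87 (SE 0.38), adjusted p = 1.64e-20. Kcnq1, the pore of a slow epithelial and cardiac current, had a lowest level of 25.7, a median of 55.9 and a highest of 82.3 CPM and rose by 4.18 (SE 0.16). Kcnj15 and Kcnq1 alone did not overlap with brain among the 11, and 55 of the 65 lower members did not overlap. Overlap was not counted over all genes, so these counts are not read as a trait of the members.

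Kcnj1 (ROMK), a kidney inward rectifier, had a lowest level of 0, a median of 12.4 and a highest of 26.6 CPM and rose by 7.98 (SE 0.73). Kcnk5 had a lowest level of 0, a median of 10.9 and a highest of 22.0 CPM and rose by 5.09 (SE 0.49). Kcnk6, whose span overlaps another protein-coding gene so that its counts are uncertain, had a lowest level of 0, a median of 19.1 and a highest of 46.6 CPM and rose by 3.67 (SE 0.43). Each had 0 counts in 1 or more libraries. Kcnk1 had a lowest level of 93.4, a median of 465 and a highest of 567 CPM against 62.3 to 141 CPM and rose by 2.22 (SE 0.19). Kcnh4, a Kv12-type subunit, had a lowest level of 3.88, a median of 38.5 and a highest of 96.1 CPM and rose by 2.66 (SE 0.30).

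Kcnd3 (Kv4.3) had a lowest level of 12.3, a median of 90.1 and a highest of 242 CPM, and its call at 1.13 (SE 0.26) was lost with DESeq2 (0.86), with RLE factors (0.86), with the replicate block (0.89) and without libraries 16 and 17 (0.99). Kcnip3 had a lowest level of 0.132, a median of 28.7 and a highest of 189 CPM and was not called at -0.78 (SE 0.49), though DESeq2 (-1.08), RLE factors (-1.08) and the replicate block (-1.64) called it lower. Kcnip3 encodes a calcium-binding subunit of Kv4 channels, the family of Kcnd3, and the sperm libraries spread widely for both. Kcnj16, Kcne3 and Kcnn4, named after their values were seen, rose by 1.29 (SE 0.34), 3.53 (SE 0.52) and 2.31 (SE 0.43). The Kcnj16 call was lost with DESeq2, with RLE factors and with the replicate block.

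Kcnu1 (chr16:72844692-72932216 in GRCr8) did not pass the low-count filter. With no filter it was called higher than in brain, at 7.45 on the log2 scale (adjusted p = 1.91e-05 with edgeR), and DESeq2 gave 4.69 (adjusted p = 2.58e-05). It had 0 counts in 7 of the 15 sperm libraries and read 46.0, 41.5, 13.4 and 3.36 CPM in libraries 14, 7, 3 and 13. The spermatid markers summed to 26088, 22833, 9072 and 2359 CPM in those libraries. Library 10 had a larger sum than library 13 (4846 CPM) but only 0.455 CPM of Kcnu1. Kcnrg followed the same libraries, at 152, 119, 72.8 and 21.9 CPM against 3.76 to 8.26 CPM in the other 11 and a mean of 26.7 CPM in brain. Kcnk1 was at its lowest in 2 of them, 93.4 CPM in library 14 and 156 CPM in library 7. Library 7 is also 1 of the 3 with few low counts. The accessory protein gene Lrrc52 was highest in libraries 14, 7 and 3 as well, at 30.8, 12.8 and 5.59 CPM, and was not tested. Of 15 partner genes tested, Abcc9 was higher and 14 were lower.

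**Figure D4:**
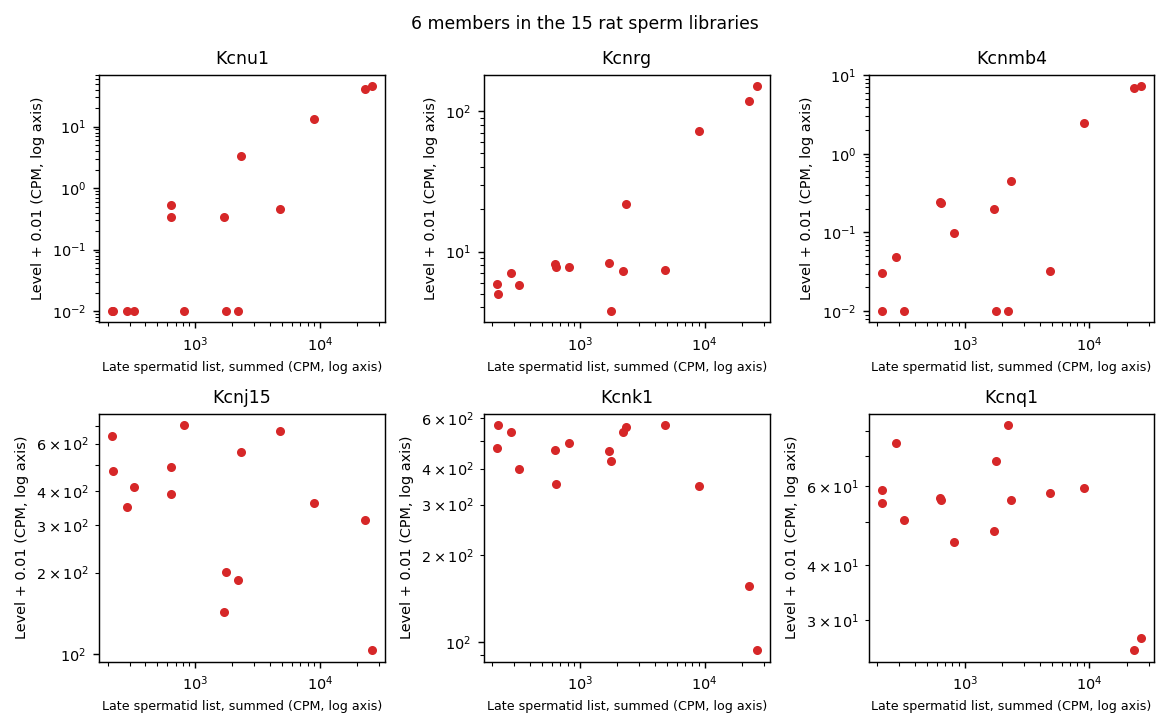
Level in CPM plus 0.01 (vertical, log axis) of 6 members in each of the 15 rat sperm libraries against the summed level of 10 late spermatid markers in CPM (horizontal, log axis). Kcnu1, Kcnrg and Kcnmb4 are highest in the 3 libraries with the largest sums, and Kcnk1 and Kcnq1 are lowest in 2 of these 3.

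Kcnv1, a silent subunit, had 1 count over the 15 sperm libraries and averaged 47.5 ± 8.31 CPM in brain. Kcnc2, Kcnk9 and Kcna1, with 6, 7 and 25 counts in sperm, had log2 fold changes of -12.68 (SE 0.42), -11.62 (SE 0.43) and -11.47 (SE 0.43). Kcna4 had 0 counts in sperm and was at least 3898-fold lower as a ratio of CPM. Kcnma1 had a lowest level of 9.03, a median of 16.5 and a highest of 23.1 CPM against 193 ± 42.0 CPM in brain and fell by 3.14 (SE 0.15). Kcnmb4 fell by 5.00 (SE 0.83). Kcnmb2 fell by 4.14 (SE 0.86), and at -6.42 without libraries 7, 16 and 17, since library 16 read 2.83 CPM. Kcnmb1 and Kcnmb3 averaged 0.253 ± 0.225 and 0.25 ± 0.484 CPM. By the detection measure 21 members (22.1%) were found in rat sperm and 78 (82.1%) in male brain, against 32.1% and 40.7% of all genes. The 21 were Kcnab2, Kcnd3, Kcnh2, Kcnh4, Kcnh7, Kcnip3, Kcnj1, Kcnj2, Kcnj13, Kcnj14, Kcnj15, Kcnj16, Kcnk1, Kcnk4, Kcnk5, Kcnk6, Kcnma1, Kcnn1, Kcnq1, Kcnrg and Kcns3. Of these Kcnj1, Kcnj15 and Kcnk5 were not detected in brain. The spans of Kcnab2, Kcnh7, Kcnj13 and Kcnk6 overlap other protein-coding genes, so their counts are uncertain. KCNJ15, KCNK1 and KCNK6 were detected in sperm of both species, 42.9% of the 7 in sheep and 14.3% of the 21 in rat. This overlap depended on the totals: without the abundant entries 18 and 23 members were detected and 8 were shared, and with TMM-adjusted totals 25 and 25 with 11 shared.

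In rat ovary, 13 of 86 tested members were higher and 65 lower than in female brain, where 56.9% of all genes were called (27.7% higher and 29.2% lower). The median log2 fold change was -4.01 over the members and 0.02 over all genes. All 13 higher members were higher in the ovary library in 14 of 14 same-numbered pairs, and 62 of the 65 lower members were lower in 14 of 14. Accessory subunits made up 4 of the 13, and the 2 largest rises were among them. Kcne3 had a lowest level of 5.41, a median of 11.3 and a highest of 24.3 CPM against 0.0638 to 0.363 CPM in brain and rose by 5.66 (SE 0.23). Kcne2 had a lowest level of 71.4, a median of 160.1 and a highest of 377 CPM and rose by 4.20 (SE 0.28). Both encode small subunits that assemble with Kcnq1, and Kcnq1 itself, named after its values were seen, rose by 1.59 (SE 0.14).

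Kcnj8 (Kir6.1), the pore of a vascular ATP-sensitive channel, had a lowest level of 24.1, a median of 37.7 and a highest of 50.8 CPM against 1.40 to 3.82 CPM and rose by 3.70 (SE 0.11). Its sulfonylurea receptor partner Abcc9 averaged 91.5 ± 14.7 CPM against 8.94 CPM in brain and rose by 3.23. It was 1 of 2 partner genes that were higher, with 14 lower of 16 tested. Kcnmb1, the smooth muscle BK subunit, had a lowest level of 5.27, a median of 8.91 and a highest of 17.4 CPM and rose by 3.73 (SE 0.25); its span overlaps Kcnip1. Smooth muscle markers (4 genes) summed to 573 to 2002 CPM in ovary and 23.1 to 85.6 CPM in female brain, and mural cell markers (3 genes) to 185 to 372 CPM and 20.7 to 86.0 CPM. Their part was not tested. The BK pore Kcnma1 went the other way from Kcnmb1: it averaged 7.04 ± 1.80 CPM against 190.4 ± 44.0 CPM and fell by 4.89 (SE 0.13). Kcnmb2 and Kcnmb4 averaged 0.865 ± 0.392 and 4.61 ± 2.75 CPM and fell as well.

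Kcnk5 had a lowest level of 2.80, a median of 6.70 and a highest of 9.51 CPM and rose by 3.97 (SE 0.23). Kcng2 had a lowest level of 29.3, a median of 48.2 and a highest of 79.0 CPM against 3.32 to 18.8 CPM and rose by 1.83 (SE 0.14). The other 6 higher members are named after their values were seen. Kcnn4, the intermediate-conductance calcium-activated channel, averaged 5.31 ± 1.93 CPM against 0.643 ± 0.162 CPM, and Kcne4, a small accessory subunit, averaged 8.57 ± 1.20 against 1.77 ± 0.676 CPM. Kcnk6, Kcnv2, Kcnj15 and Kcnk3 rose by 2.63 (SE 0.11), 2.21 (SE 0.39), 1.38 (SE 0.19) and 1.24 (SE 0.20). The Kcnk6 counts carry the uncertainty given above, and the span of Kcnv2 overlaps the protein-coding gene Pum3. Kcnh2 (Erg1) averaged 73.0 ± 17.3 CPM against 40.9 ± 7.60 CPM, a log2 fold change of 0.70 (SE 0.09) that did not reach the fold threshold. Kcnh1 averaged 45.7 ± 18.3 against 49.0 ± 13.4 CPM and was not called. Kcnu1 averaged 0.0639 ± 0.0557 CPM in ovary and 0.0559 ± 0.0509 CPM in female brain.

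Kcnk9 had 0 counts in ovary and averaged 51.9 ± 13.8 CPM in female brain, at least 12151-fold lower. Kcnc1, Kcnj6, Kcnh5 and Kcnq3 fell, with log2 fold changes of -13.25 (SE 0.24), -12.42 (SE 0.27), -12.11 (SE 0.24) and -9.74 (SE 0.18). By the detection measure 37 members (38.9%) were found in ovary and 75 (78.9%) in female brain, against 37.9% and 38.5% of all genes. Kcne3, Kcne4, Kcnk5, Kcnmb1 and Kcnn4 were detected in ovary and not in brain. Ovary and rat sperm shared 14 detected members, 37.8% of the ovary's and 66.7% of the sperm's.

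**Figure D5:**
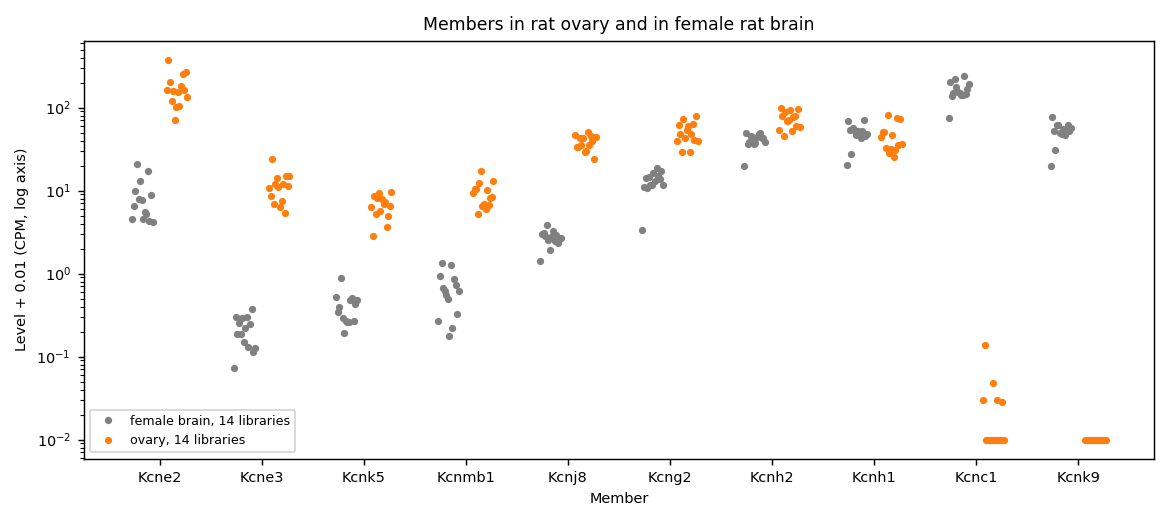
Level in CPM plus 0.01 (log axis) of 10 members in the 14 ovary libraries (orange) and 14 female brain libraries (grey). Kcne2, Kcne3, Kcnk5, Kcnmb1, Kcnj8 and Kcng2 lie above all brain libraries, Kcnh2 and Kcnh1 overlap, and Kcnc1 and Kcnk9 lie at or near 0 in ovary.

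Female and male rat brain did not differ in any called member. Of 85 tested, 0 were called with edgeR, where 0.0583% of all genes were (0.0146% higher and 0.0438% lower in females), and 8 had an unadjusted p below 0.05. DESeq2 called 0 as well, with 9 at an unadjusted p below 0.05. The smallest p was that of Kcnc2, at 116 ± 35.1 CPM in females and 97.7 ± 22.8 CPM in males, a log2 fold change of 0.32 (SE 0.11) and adjusted p = 0.265.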

How the data were processed

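Stranded mRNA libraries were sequenced: 55 from sheep and 58 from rat. Per the labels and the series' design text, the authors trimmed reads with Trimmomatic, aligned them with STAR (ARS-UI_Ramb_v3.0 in sheep, GRCr8 in rat) and counted them per gene with Rsubread. The deposited values are raw whole-number counts per gene, not normalized; how strand and multiply matching reads were handled is not given in the sources used here.

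Each comparison was fitted on all genes of its table with edgeR 4.0.16 (R 4.3.3, limma 3.58.1): the quasi-likelihood test with TMM scaling, its low-count filter by group and a prior count of 0.125. The 10 sheep regions shared 1 fit, and each tissue comparison and the comparison of female with male brain had its own. DESeq2 1.42.0 was an alternative. Calls needed a Benjamini-Hochberg adjusted p below 0.05 over all genes and a change of 1 or more, up or down, in log2 units; SE is the log2 fold change divided by the square root of F. The test was also run on simulated counts, with the same spread for every gene and without rarely counted genes. Those settings differ from the sperm libraries and the low-count members, so that run does not bear on their calls. CPM used totals without 3 ribosomal entries in rat and 4 unnamed abundant entries in sheep.

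Members were every symbol starting with KCN. The members, the lists of markers and partners and the rules were chosen with earlier results of these data known. Named were up to 3 higher and 2 lower called members per sheep region and up to 5 per direction in each tissue comparison, by size of change at 1 CPM or more in the higher group. Also named were every member detected in sheep sperm, those with the highest means among the detected in rat sperm and ovary, the smallest p between the sexes, and KCNU1, the BK genes, KCNJ10, KCNJ13 and KCNJ16. Other members are said to be named after their values were seen.

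Sheep numbers are animals per the labels, so sperm and brain regions of 1 number are paired. Deviations of sperm and brain with the same number correlated at 0.0397 to 0.112. Those of hippocampus and motor cortex correlated at -0.159 to 0.351 (median 0.251), over 0.1 in 4 of 5 sheep. The main fits held no term for the animal, which was a block in an alternative fit. In rat, both tissues of a sex were taken from the same set of animals, as given in the opening. Rat numbers recur across tissues, but the labels do not say that a number marks 1 animal. The main rat tests were therefore unpaired, with the number as a block as an alternative. No 2 libraries held the same values. P-values measure the spread between these libraries. Promoters came from RefSeq (GRCr8); no sheep sequence was used here. Some members and 1 partner gene are counted but not reported by name here.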

Additional observations from a re-analysis of the deposited data

Results flagged for a closer look

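In 71 groups of 5 sheep libraries examined for a single value far from the other 4, 11 held one. The rule marks about 1 in 20 groups of independent, normally distributed values. These were CPM levels and some flagged values share a library, so no excess over chance is drawn. KCNJ13, the choroid plexus inward rectifier, did so in 3 regions: sheep 694 read 19.8 CPM in hippocampus (others 2.05 to 3.98) and 12.3 CPM in pons (others 0.499 to 3.67), and sheep 687 read 10.2 CPM in motor cortex (others 2.58 to 4.18). The choroid plexus marker sums in those 3 libraries were 1744, 1391 and 964 CPM, each the highest of its region; their part was not tested.

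Silent Kv2 modifiers of the KCNG family stood out 4 times. KCNG4 read 14.6 CPM in the hippocampus of sheep 694 (others 0.979 to 2.05) and 20.2 CPM in the pons of sheep 690 (others 10.0 to 13.0). KCNG1 read 80.0 CPM in the motor cortex of sheep 688 (others 16.5 to 34.2). KCNG2 read 2.66 CPM in the hippocampus of sheep 699, where the others read 28.7 to 37.5.

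KCNH3 read 4.83 CPM in the pons of sheep 694, against 0.605 to 0.993 in the others. KCNS3 read 12.0 CPM in the posterior parietal cortex of sheep 688 (others 6.01 to 7.41), and KCNA4 read 34.8 CPM in the basal ganglia of sheep 690 (others 45.7 to 48.8). In sperm, KCNK1 read 59.1 CPM in sheep 688, while the others read 22.0 to 30.4.

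KCNQ1, the pore of a slow epithelial and cardiac current, went opposite ways in the sperm libraries of the species: it was above brain in 0 of 5 sheep and in 15 of 15 rat pairs. The difference between the species was not tested.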

How the results depend on the processing

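Over 154 recomputed counts of members called or detected, 141 stayed within 1.5 times of the reported count and 13 did not. In sheep sperm, 16 members were detected at 0.5 CPM, 18 with totals without the 4 abundant entries and 25 with TMM-adjusted totals, in place of 7; TMM factors under 1 raise the adjusted levels. Entorhinal cortex gave 1 call (KCNU1) with no low-count filter. Leaving out each sheep in turn gave 1 to 3 calls in entorhinal cortex, 6 to 12 in hippocampus, 5 to 13 in motor and 4 to 12 in prefrontal cortex. The same gave 52 to 55 in cerebellum, 36 to 44 in pons, 32 to 37 in basal ganglia, 12 to 15 in frontal, 7 to 13 in visual and 4 to 5 in posterior parietal cortex, and 73 to 76 in sheep sperm, where 5 to 7 were detected.

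Of 1078 recomputed fold changes of named members, 1027 kept their direction and their side of the thresholds, 45 lost the call, 3 gained it and 3 turned: KCNJ12 in sheep sperm with no low-count filter (-0.017), and KCNJ2 (-0.059) and KCNV2 (-6.17) in sheep sperm without sheep 694. Without each sheep in turn KCNJ2 ranged from -0.059 to 1.40 and KCNV2 from -6.17 to 2.20. The cause was not tested. With DESeq2, sheep sperm gave 13 higher and 64 lower members instead of 9 and 66.

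With the replicate number as a block, 75 members were called in sheep sperm, 54 in cerebellum, 41 in pons, 35 in basal ganglia, 16 in frontal, 11 in hippocampus, 10 in prefrontal, 8 in motor, 8 in visual, 3 in posterior parietal and 0 in entorhinal cortex. In rat, pairing by number is not established. Same-numbered brain and tissue libraries correlated at -0.0372 to 0.173 (sperm, 4 of 15 best with their own number) and -0.127 to 0.0882 (ovary, 4 of 14). The block gave 79 calls in sperm and 80 in ovary. Low counts limit members such as KCNE2 and KCNH6 in sheep sperm.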

Other observations

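Among the 9 members called in no sheep brain region, KCNJ8, the vascular ATP-sensitive pore, averaged 5.34 ± 3.12 CPM in cerebellum, its highest region, and 3.89 ± 0.971 CPM in basal ganglia, its lowest. KCNA6, a Kv1 subunit, averaged 119 ± 23.9 CPM in pons and 52.7 ± 8.27 CPM in posterior parietal cortex.

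Some inward rectifiers were recorded at different levels in rat sperm and ovary libraries. Kcnj15 had a lowest level of 103, a median of 392 and a highest of 703 CPM in sperm and a lowest level of 0.553, a median of 1.26 and a highest of 2.52 CPM in ovary. Kcnj8 averaged 38.1 ± 7.79 CPM in ovary and 0.0724 ± 0.147 CPM in sperm. The difference between sperm and ovary was not tested.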
